A study of Mus musculus with 4 samples.

Results

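Ephrins and Eph receptors were followed through the endothelium of the developing and adult mouse heart, with 6 genes as members: the ephrin genes Efnb2, Efnb1 and Efna1 and the receptor genes Ephb4, Epha4 and Ephb1. They were chosen by name, with earlier results of these data known, and each was measured among the 27998 genes of the series. The other 16 genes of the family, out of 22 in all, were counted beside them. Hearts came from C57Bl6J mice at E12, at E15, at P2 and at 8 weeks (Adult), with no genetic change or treatment. Each stage gave 1 library from pooled hearts of 37, 48, 21 and 6 animals, in that order, sorted as CD31+/CD45- cells, so that a stage cannot be told apart from its library, its digestion and its handling. Sorted cells of every stage were frozen, and embryonic cells were collected over several sorts. The enzymes and digestion times differed by stage. After thawing, E12 and E15 cells went through dead-cell removal while P2 and adult cells were sorted again.

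Ephrins are ligands that stay on the cell that makes them, A-type ephrins through a lipid anchor and B-type ephrins through a transmembrane stretch, and Eph receptors are the receptor tyrosine kinases that bind them on the neighbouring cell. Signals run into both cells at such a contact and commonly end in repulsion and in the sorting of cells into separate territories. In blood vessels ephrin-B2 is the classic marker of arterial endothelium and EphB4, its receptor, that of venous endothelium, and both are needed for the embryonic vessel network to remodel.

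The stretches just before the start sites of 4 members are shown because Efnb2 and Ephb4 form the ligand and receptor pair compared throughout, and because Efnb1 and Ephb1 differed most between endocardial and coronary cells at P2. RefSeq promoters (GRCm38.p6) matched 6 of 6 members in 7 windows of 250 bases before to 50 bases from the start, and the 250 bases before the start are printed 5′ to 3′ on the strand of the gene. Capitals mark motif letters found on either strand. The windows lie at chr8:8661243-8661492 on the minus strand for Efnb2, chr5:137349859-137350108 on the plus strand for Ephb4, chrX:99135811-99136060 on the plus strand for Efnb1 and chr9:102354694-102354943 on the minus strand for Ephb1.
Efnb2: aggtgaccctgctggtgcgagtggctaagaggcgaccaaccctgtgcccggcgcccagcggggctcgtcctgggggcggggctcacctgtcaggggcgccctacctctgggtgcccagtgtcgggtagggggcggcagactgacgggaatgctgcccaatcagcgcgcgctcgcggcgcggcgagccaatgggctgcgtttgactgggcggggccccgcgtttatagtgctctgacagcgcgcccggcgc
Ephb4: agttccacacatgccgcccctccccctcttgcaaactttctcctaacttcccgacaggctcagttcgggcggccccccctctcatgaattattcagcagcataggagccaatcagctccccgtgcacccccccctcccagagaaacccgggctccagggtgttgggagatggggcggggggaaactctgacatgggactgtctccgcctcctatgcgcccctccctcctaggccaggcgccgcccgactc
Efnb1: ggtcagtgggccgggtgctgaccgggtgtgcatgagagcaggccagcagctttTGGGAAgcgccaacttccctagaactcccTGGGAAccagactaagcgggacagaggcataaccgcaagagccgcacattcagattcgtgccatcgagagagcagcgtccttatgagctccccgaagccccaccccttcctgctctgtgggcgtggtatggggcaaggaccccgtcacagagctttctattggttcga
Ephb1: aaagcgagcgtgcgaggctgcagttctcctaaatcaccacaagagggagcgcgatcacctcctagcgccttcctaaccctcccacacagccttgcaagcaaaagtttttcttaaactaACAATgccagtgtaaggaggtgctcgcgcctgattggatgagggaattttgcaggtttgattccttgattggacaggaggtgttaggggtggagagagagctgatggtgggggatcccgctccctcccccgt

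Letters bound by 5 kinds of factors were searched on both strands of the 300-base windows. TGGGAA, the core letters of RBPJ, the DNA-binding partner of Notch, occurred 2 times for Efnb1 and 1 time for Epha4, and in 25.6% of all 32851 promoters of that length. ACAAT, letters bound by SOX factors, occurred 1 time for Ephb1 and in 31.0% of all promoters. AGGTCA, a core letter run of nuclear receptor sites (16.3% of promoters), CACGTG, an E-box bound by HEY factors (7.15%), and TGTTTA, letters bound by forkhead factors (13.4%), were in no member's window. The Efnb2, Ephb4 and Efna1 windows held none of the 5 motifs. Guanine and cytosine made up 72.3% of the Efnb2 window and 64.7% of that of Ephb4, against 59.7% for Efnb1 and 55.7% for Ephb1. A match of letters is not a bound site, and a window without a match says nothing of more distant elements.

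In the mouse annotation (GRCm38) Efnb2 (ENSMUSG00000001300) lies at chr8:8617434-8661242 on the minus strand and Ephb4 (ENSMUSG00000029710) at chr5:137350109-137378669 on the plus strand. Efnb1 (ENSMUSG00000031217) lies at chrX:99136130-99148991 on the plus strand and Efna1 (ENSMUSG00000027954) at chr3:89271733-89281142 on the minus strand. Epha4 (ENSMUSG00000026235) lies at chr1:77367185-77515088 and Ephb1 (ENSMUSG00000032537) at chr9:101922128-102354693, both on the minus strand. All are protein-coding, and no other counted gene overlaps a member on its own strand. On the other strand Zan overlaps Ephb4, and 9630041A04Rik and Gm26846 overlap Ephb1.

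Values are unique molecular identifiers (UMIs), each marking 1 captured transcript, summed over the cells of a class and given as CPM, the gene's count in every 1000000 UMIs of that class. Intervals are exact 95% intervals for the error of counting alone. A single library stood for each stage and no test could be made, so differences are stated as ratios with their interval and the spread between animals is unknown. Between 5569 (E12), 5880 (E15), 5721 (P2) and 4087 (Adult) barcodes were kept, with a median of 1228, 998, 4504 and 1484 UMIs. Cells with more UMIs of Npr3 and Tmem108 than of Fabp4, Cldn5 and Aplnr were called endocardial, and cells with at least 2 UMIs of the latter genes, and more than of the former, coronary. Artery cells had at least 3 UMIs of Cxcl12, Glul, Alpl and Nebl, large artery cells at least 2 UMIs of Fbln5, Eln, Gkn3 and Clu, and other coronary cells were coronary cells outside both. No member was part of these rules. The endocardial call rested on a lead of 1 UMI in 1058 of 1659 cells at E12 and 1161 of 2054 at E15. At P2 it did so in 178 of 1060 cells and in the adult in 16 of 65. The coronary call rested on exactly 2 UMIs in 65 of 107 cells at E12 and 163 of 1190 at E15. The counts were 81 of 4463 cells at P2 and 51 of 3943 in the adult. Both classes were thus set less firmly in the embryonic libraries, and their levels and steps between stages carry this limit.

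The artery gates were made up mostly of coronary cells only after birth. Of 687 artery cells at P2 and 1804 in the adult, 95.6% and 99.4% were also coronary, and the arterial marker list summed to 2363 CPM at P2 and 2331 CPM in the adult, against 966 and 1691 CPM in other coronary cells. The P2 artery gate held 687 of 5721 barcodes kept, and the adult one 1804 of 4087, or 44.1%. Fabp4 and Aplnr stood at 21226 and 238 CPM in adult artery cells, against 22142 and 329 CPM in all adult coronary cells. At P2 the levels were 12928 and 163 CPM, against 14384 and 370 CPM. Adult artery cells are thus cells that pass this wide gate, and the part of capillary cells among them was not tested. None of the 308 artery-gate barcodes at E12 and 17 of 64 at E15 were coronary. There the mesenchyme list summed to 2185 and 4260 CPM and the pan-endothelial list to 225 and 804 CPM, against 1914 and 2231 CPM in coronary cells. The large artery gate behaved alike, with 1.56% of its barcodes coronary at E12 and 10.3% at E15. The embryonic artery gates are therefore described by their rule, and no ratio to other classes is given for them. They enter the likeness of genes over groups, which is also given without them. They also enter the count of family genes reaching 20 CPM and the totals over alternative settings. Where a level or share of theirs is given, the gate is named. The P2 large artery gate was 59.6% coronary and 33.5% endocardial and carried 1953 CPM of the lymphatic list, and the adult one was 89.4% coronary. The adult endocardial class had only 65 cells, and its mesenchyme list summed to 1834 CPM with Sox9, Col1a1 and Pdgfra at 0. The part of these other cells in the values below was not tested, except where values without them are given.

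Efnb2, the gene of ephrin-B2, was higher in artery cells than in other coronary cells after birth. At P2 it stood at 169 CPM (156 to 183) in artery cells and 69.1 CPM (64.8 to 73.6) in other coronary cells, a ratio of 2.44 (2.2 to 2.71). In the adult the levels were 118 CPM (107 to 131) and 63.1 CPM (54.2 to 73.0), a ratio of 1.88 (1.57 to 2.25). The intervals of the artery class and of the other coronary class did not overlap at either stage. Large artery cells were also above other coronary cells, at 130 CPM (123 to 138) at P2 and 147 CPM (128 to 168) in the adult, with ratios of 1.89 (1.73 to 2.05) and 2.33 (1.91 to 2.85). With 1 UMI more required in each gate the adult ratio was 1.82. The large artery class shared cells with the artery class, 15.4% of its cells at P2 and 62.6% in the adult. Coronary cells of the large artery gate alone, without lymphatic markers, had 123 CPM (112 to 136) of Efnb2 at P2. In the adult such cells had 105 CPM (74.2 to 144). Both intervals lay above those of other coronary cells. Of the 6 members, Efnb2 and Epha4 were at least 2-fold higher in artery than in other coronary cells at P2, where 9.88% of all tested genes differed by that much in either direction. In the adult, where the artery gate held 44.1% of the barcodes kept, no member was, and the background was 5.8%. For large artery cells, 3 members passed 2-fold at P2 (Epha4 above, Efnb1 and Ephb1 below) against a background of 19.5%, and 2 in the adult (Efnb2 above, Ephb1 below) against 13.7%. The P2 gate was 33.5% endocardial. In its coronary cells outside the artery gate, without lymphatic markers, Efnb1 was less than 2-fold lower, at 27.2 against 51.9 CPM in other coronary cells. Epha4, at 11.7 against 4.47 CPM, and Ephb1, at 7.43 against 18.7 CPM, stayed past 2-fold there.

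**Figure D1:**
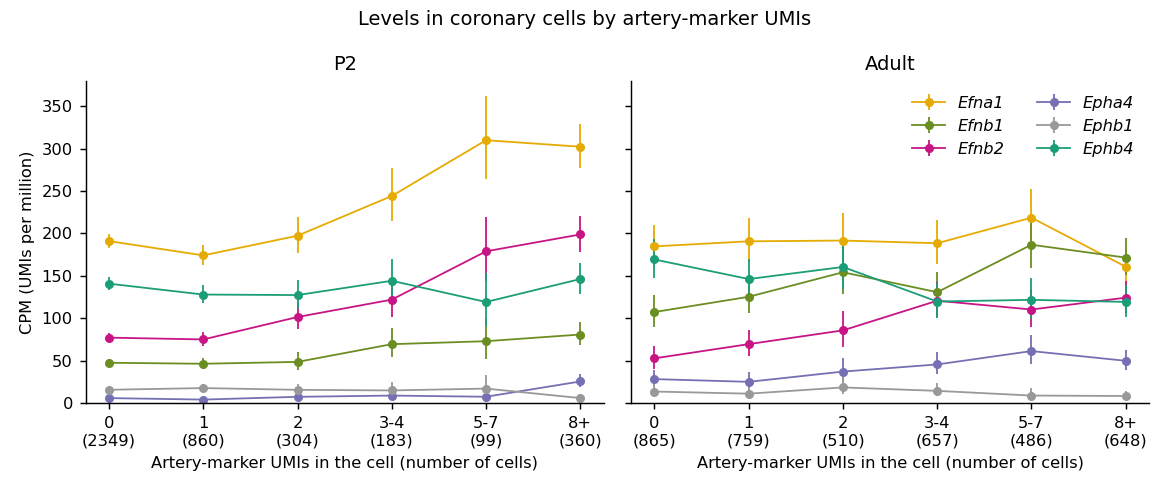
CPM of the 6 members (vertical axes) in coronary cells without lymphatic markers, grouped by the number of artery-marker UMIs in the cell (horizontal axis, with the number of cells below each bin), at P2 (left) and in the adult (right), with bars for exact 95% Poisson intervals. Efnb2 goes from 77.3 CPM in P2 cells without an artery-marker UMI to 199 CPM in those with 8 or more, while Ephb4 stays between 119 and 146 CPM there.

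Within coronary cells Efnb2 was higher in those with several artery-marker UMIs than in those with none. At P2 the 2349 cells without one had 77.3 CPM (72.1 to 82.8) and the 860 cells with 1 had 75.2 CPM (67.4 to 83.6). The 304 cells with 2 had 102 CPM (87.0 to 118) and the 360 cells with 8 or more had 199 CPM (179 to 221). Adult cells went from 52.9 CPM (40.9 to 67.5) in the 865 cells with none to 121 CPM (101 to 143) in the 657 cells with 3 or 4, with 110 CPM (89.6 to 135) in the 486 cells with 5 to 7 and 124 CPM (107 to 144) in the 648 cells with 8 or more. A single artery-marker UMI at P2 therefore did not go with a higher level. The adult levels from 3 UMIs upwards did not differ beyond their intervals. Median depth in these groups ran from 4119 to 5036 UMIs at P2 without an order, and from 1171 to 2064 UMIs in the adult, where cells with more artery-marker UMIs were deeper. With the artery minimum scaled to the depth of the cell, an alternative chosen after seeing the data, the ratio of artery to other coronary cells was 2.70 at P2 and 1.93 in the adult.

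Cells in both artery gates carried the most Efnb2. At P2 the 268 coronary cells in both had 203 CPM, 2.94 times (2.57 to 3.35) the level of other coronary cells, and the 389 cells in the artery gate alone had 148 CPM, 2.15 times (1.88 to 2.45). In the adult the corresponding levels were 167 CPM in 430 cells and 100 CPM in 1364 cells, with ratios of 2.64 (2.12 to 3.29) and 1.59 (1.31 to 1.94). Both sets of cells thus stood above other coronary cells, and those in both gates stood higher than those in the artery gate alone.

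Efnb2 differed less between endocardial and coronary cells, and not in a fixed direction. Endocardial cells had 73.3 CPM (62.6 to 85.3) at E12 and 67.1 CPM (56.8 to 78.7) at E15, against 90.8 CPM (82.7 to 99.6) at P2 and 158 CPM (101 to 236) in adults. Coronary cells had 56.7 CPM (29.3 to 99.1), 96.8 CPM (81.4 to 114), 97.2 CPM (93.1 to 101) and 94.5 CPM (87.2 to 102). The ratio was 0.694 (0.547 to 0.880) at E15 and 0.935 (0.843 to 1.03) at P2, while the adult gave 1.68 (1.06 to 2.52), the last resting on 24 UMIs. Coronary levels at E15, P2 and Adult could not be told apart within their intervals.

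**Figure D2:**
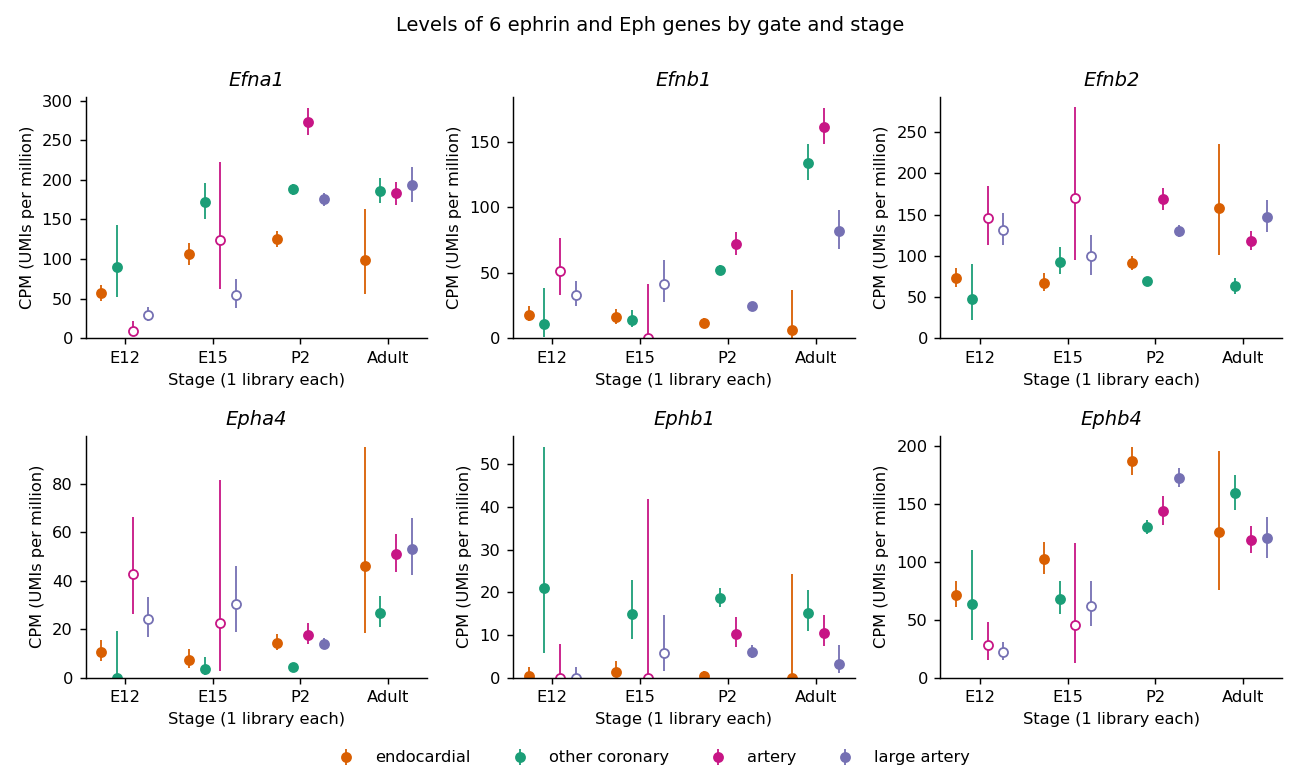
Level in CPM (vertical axes) of each of the 6 members in endocardial, other coronary, artery and large artery cells at E12, E15, P2 and Adult (horizontal axes), with bars for exact 95% Poisson intervals and hollow points for the embryonic artery gates, whose barcodes were mostly not coronary. Efnb1 is at 134 CPM in adult other coronary cells and at 6.60 CPM in adult endocardial cells, and Ephb1 lies under 22 CPM in every class.

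Ephb4, the gene of the receptor that ephrin-B2 binds in veins, was higher in the coronary cells of P2 and Adult than in those of E15. Coronary cells held 61.4 CPM (32.7 to 105) at E12 and 67.7 CPM (55.0 to 82.5) at E15, and 141 CPM (136 to 146) at P2 and 139 CPM (130 to 148) in the adult. The P2 level was 2.09 times (1.71 to 2.58) that at E15, and the adult level 0.982 times (0.911 to 1.06) that at P2. Other coronary cells, outside both artery gates, had 68.0 CPM (54.8 to 83.4) at E15, 130 CPM (124 to 136) at P2 and 159 CPM (145 to 175) in the adult. In them the adult interval lay above that of P2. Endocardial cells went from 71.6 CPM (61.0 to 83.4) at E12 to 102 CPM (89.6 to 117) at E15 and 187 CPM (175 to 199) at P2, ratios of 1.43 (1.17 to 1.76) and 1.82 (1.58 to 2.12), with 125 CPM (75.5 to 196) in the adult. The endocardial intervals at E15 and P2 each lay above that of the stage before, and the adult interval took in the P2 level. Ephb4 was higher in endocardial than in coronary cells at E15, by 1.51 (1.19 to 1.94), and at P2, by 1.32 (1.23 to 1.42), and the interval included 1 at E12 and in the adult.

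Artery cells differed from other coronary cells in Ephb4 by less than 2-fold. At P2 they had 144 CPM (132 to 157) against 130 CPM (124 to 136), a ratio of 1.11 (1.00 to 1.22), and in the adult 119 CPM (107 to 131) against 159 CPM (145 to 175), a ratio of 0.745 (0.650 to 0.854). Large artery cells gave 1.33 (1.24 to 1.42) at P2, and those of the adult 0.754 (0.632 to 0.897). The ratios thus lay above 1 at P2, that of artery cells only just, and below 1 in the adult. The difference between these stages was not tested. P2 artery cells that were also coronary had 141 CPM (129 to 154), an interval that overlapped that of other coronary cells. Coronary cells of the large artery gate alone, without lymphatic markers, gave 1.26 (1.15 to 1.39) at P2, while the interval of the adult ratio, 0.952 (0.706 to 1.26), included 1. Coronary cells outside the artery gates with at least 2 UMIs of vein markers had 158 CPM at P2 (199 cells) and 242 CPM in the adult (82 cells), 1.15 times (0.979 to 1.35) and 1.54 times (1.06 to 2.15) the level of the remaining other coronary cells. The adult value rests on 37 UMIs. Cells of the artery gate alone held 0.915 times (0.756 to 1.11) the Ephb4 level of vein-marker cells at P2 and 0.511 times (0.362 to 0.740) in the adult.

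Efnb2 against Ephb4 was read as the share of Efnb2 among the UMIs of both genes, which needs no total and compares cells of 1 library with each other. At P2 the share was 54.0% (51.0 to 56.9) in artery cells and 34.8% (33.0 to 36.6) in other coronary cells. In the adult it was 49.9% (46.4 to 53.4) and 28.4% (24.9 to 32.1). Artery cells therefore held relatively more Efnb2 than other coronary cells at both stages, with intervals that did not overlap. In groups of cells split further, the P2 share was 26.9% (21.5 to 33.0) in vein-marker cells, 50.7% (46.5 to 54.9) in the artery gate alone and 59.7% (55.3 to 64.1) in both artery gates. The adult values in the same order were 24.5% (13.3 to 38.9), 44.8% (40.6 to 49.1) and 60.2% (54.0 to 66.1). The intervals of these groups did not overlap at either stage. Coronary cells of the large artery gate alone, without lymphatic markers, had 43.0% (39.9 to 46.2) at P2, between the vein-marker cells and the artery gate alone. Their adult share of 40.9% (30.8 to 51.5) had an interval that overlapped those of both. Vein-marker cells are themselves part of the other coronary cells, whose adult share lay inside their interval. Counts at the 3′ end are not corrected for how well each transcript is captured, so a share of 50% does not mean equal numbers of transcripts.

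**Figure D3:**
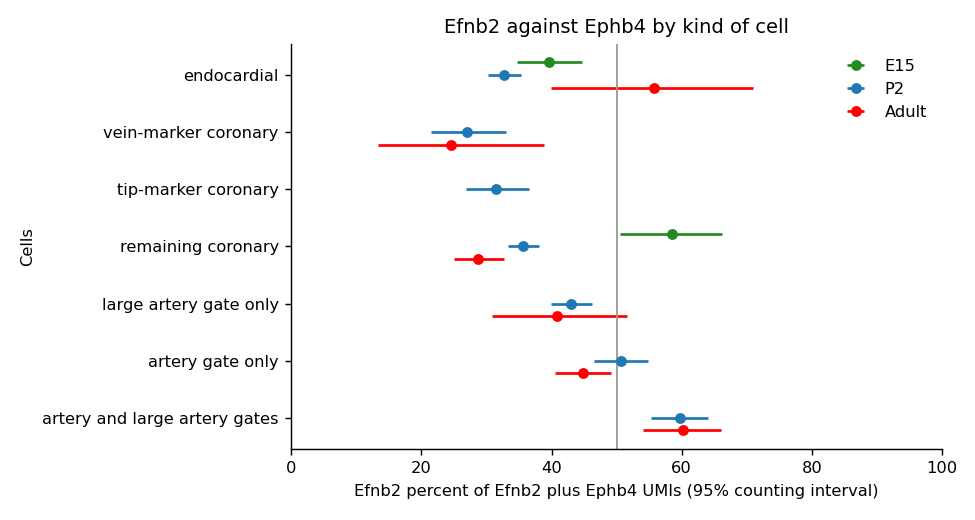
Efnb2 UMIs as a percentage of Efnb2 and Ephb4 UMIs (horizontal axis) in the cell groups with at least 20 UMIs of both genes together, by stage, with bars for exact 95% binomial intervals and a line at 50. Vein-marker cells lie at 26.9 at P2 and 24.5 in the adult, and cells in both artery gates at 59.7 and 60.2.

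In the endocardium E12 cells had an Efnb2 share of 50.6% (45.1 to 56.1), E15 cells 39.6% (34.6 to 44.7), P2 cells 32.7% (30.3 to 35.2) and adult cells 55.8% (39.9 to 70.9). The E15 interval lay below that of E12, and those of E15 and P2 overlapped slightly. Other coronary cells had 57.8% (50.9 to 64.4) at E15, above endocardial cells of that stage and above other coronary cells of P2. Over all coronary cells, those in the artery gates included, the share was 58.8% (52.3 to 65.1) at E15 and 40.8% (39.4 to 42.1) at P2. Shares of different stages come from different libraries. The embryonic artery gates reached 84.0% (74.1 to 91.2) and 85.7% (80.4 to 90.0) for artery and large artery barcodes at E12. These barcodes were rich in mesenchymal genes, and the share was 68.1% (59.8 to 75.6) in the 989 E12 barcodes with mesenchyme markers and no pan-endothelial UMI.

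UMIs of both genes were also found under the same barcodes. At P2 51.0% (45.6 to 56.4) of the artery cells with an Efnb2 UMI also had an Ephb4 UMI, and 47.9% (42.5 to 53.4) of those without, at a median of 5048 and 4503 UMIs. For adult artery cells the shares were 24.4% (19.8 to 29.5) and 18.6% (16.6 to 20.7), at 1822 and 1738 UMIs. The intervals of the pairs of shares overlapped, and the cells with Efnb2 were the deeper ones. With every cell thinned to 500 UMIs the shares in P2 artery cells were 0 of 49 cells, with an interval up to 7.25%, and 7.21% (5.33 to 9.50). In adult artery cells they were 5.98% (2.44 to 11.9) and 6.94% (5.77 to 8.25). At that depth a difference was not detectable. The 24 adult barcodes with mural markers, a cell type that should lack Ephb4, held 0 Ephb4 UMIs at a median of 2289 UMIs, which allows a level of up to 52.2 CPM. In the embryonic libraries such barcodes did hold Ephb4, with 7 UMIs in 181 barcodes at E12 (25.4 CPM) and 4 UMIs in 50 at E15 (47.6 CPM). No such background was had at P2 and no doublet caller was run, so these shares are not read as cells that express both genes.

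Efnb1, the gene of ephrin-B1, another B-type ephrin, was higher in coronary than in endocardial cells after birth. Coronary cells had 9.45 CPM (1.14 to 34.1) at E12, 13.8 CPM (8.44 to 21.4) at E15, 49.2 CPM (46.3 to 52.2) at P2 and 144 CPM (135 to 154) in the adult. Endocardial cells had 18.0 CPM (12.9 to 24.4), 16.1 CPM (11.3 to 22.3), 11.9 CPM (9.10 to 15.4) and 6.60 CPM (0.167 to 36.7), the last from 1 UMI. Coronary levels were thus 3.56 times (2.29 to 5.85) higher at P2 than at E15 and 2.94 times (2.69 to 3.21) higher in the adult than at P2, and every endocardial step had an interval that included 1. The ratio of endocardial to coronary cells was 1.17 (0.657 to 2.12) at E15, while P2 gave 0.242 (0.184 to 0.315) and the adult 0.0457 (0.00115 to 0.255).

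Within coronary vessels Efnb1 was highest in the artery gate alone. At P2 these cells had 91.4 CPM, against 53.1 CPM in the cells of both artery gates and 51.9 CPM (48.1 to 55.8) in other coronary cells. Adult cells of the artery gate alone had 185 CPM, those of both gates 108 CPM and other coronary cells 134 CPM (121 to 148). The ratio of the artery gate alone to other coronary cells was 1.76 (1.49 to 2.08) at P2 and in the adult 1.38 (1.20 to 1.59), while that of the cells in both gates was 1.02 (0.800 to 1.30) and 0.808 (0.644 to 1.01). This is the reverse of the order of Efnb2, which was higher in the cells of both gates. Over all artery cells the Efnb1 ratio was 1.39 (1.20 to 1.60) at P2 and in the adult 1.21 (1.06 to 1.38), and over all large artery cells 0.475 (0.410 to 0.550) and 0.613 (0.496 to 0.752). Without the cells of both gates, adult large artery cells gave 0.288. The P2 large artery class was 33.5% endocardial. Coronary cells of the large artery gate alone, without lymphatic markers, had 27.2 CPM (22.0 to 33.2) of Efnb1 at P2. In the adult such cells had 55.2 CPM (33.7 to 85.2).

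Between endocardial and coronary cells, the members past 2-fold were Epha4 (higher) at E12 and E15, Ephb1 (lower) at E15, Efnb1 and Ephb1 (both lower) at P2, and Efnb1 (lower) in the adult. Ephb1 in the adult, with 0 endocardial UMIs, had a ratio of 0 whose interval reached 2.00, and is not counted here. The shares of all tested genes given next do include genes with 0 UMIs in either class. Of all tested genes, the E12 library had 27.9%, E15 18.9%, P2 21.8% and Adult 40.3% that differed by 2-fold or more. The Epha4 ratios of 2.23 (0.364 to 91.7) and 2.07 (0.725 to 7.23) rest on 1 and 5 coronary UMIs, and their intervals include 1. The median of all tested genes in these comparisons was 0.18 (log2) at E12 and 0.14 at E15, and within 0.1 of 0 afterwards.

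**Figure D4:**
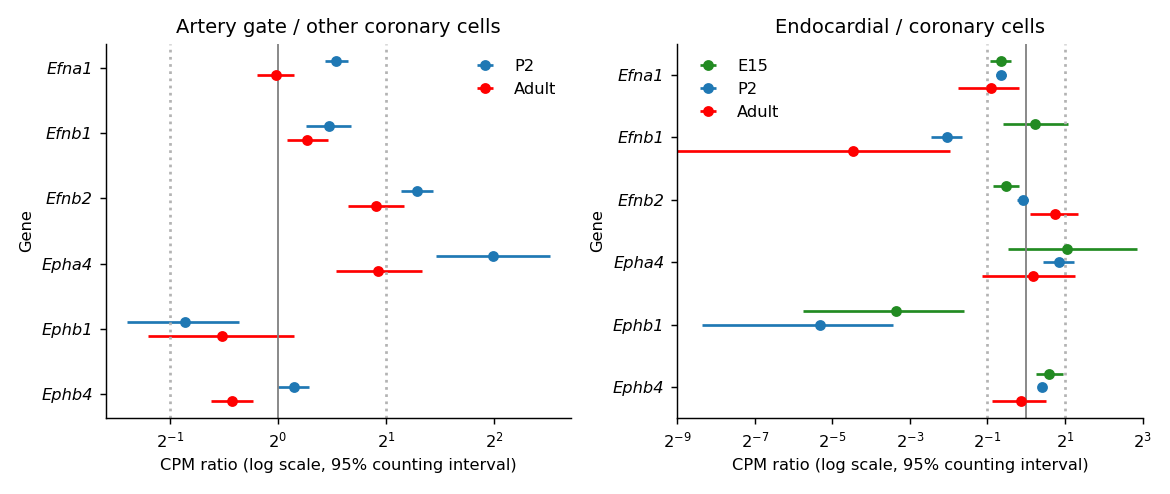
CPM ratios of the 6 members on a log scale (horizontal axes) of artery to other coronary cells (left, P2 and Adult) and of endocardial to coronary cells (right, E15, P2 and Adult), with bars for exact conditional 95% intervals and dotted lines at 2-fold; the ratio of 0 for adult Ephb1 is not drawn, and the bar of adult Efnb1 runs past the left edge. Efnb1 and Ephb1 lie left of the lower line in the endocardial to coronary comparison at P2, at 0.242 and 0.0252, and Efnb2 and Epha4 right of the upper line in the artery comparison at P2, at 2.44 and 3.98.

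Efna1, the gene of ephrin-A1, a lipid-anchored ephrin induced by inflammatory signals in endothelium, had the most UMIs of the members, 7388 over the 4 libraries. It was lower in endocardial than in coronary cells in each library. Endocardial cells had 56.6 CPM (47.3 to 67.3) at E12, 106 CPM (93.0 to 120) at E15, 125 CPM (116 to 136) at P2 and 98.9 CPM (55.4 to 163) in the adult. Coronary cells had 89.8 CPM (54.1 to 140), 168 CPM (148 to 190), 196 CPM (190 to 202) and 187 CPM (176 to 197). The ratio stayed between 0.530 (0.296 to 0.878) in the adult and 0.639 (0.587 to 0.695) at P2, and its interval included 1 only at E12, where it was 0.631 (0.388 to 1.08). Both classes stood higher at E15 than at E12, by 1.87 (1.17 to 3.16) in coronary and 1.87 (1.50 to 2.34) in endocardial cells. E12 barcodes of 1 to 100 UMIs, mostly droplets without a cell, had 78.1 CPM (59.1 to 101) of Efna1, a level like those of the E12 classes. The part of free RNA in this step was not tested.

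Artery cells of P2 had 273 CPM (256 to 291) of Efna1 against 188 CPM (181 to 195) in other coronary cells, a ratio of 1.45 (1.35 to 1.56). The adult values were 183 CPM (169 to 198) and 186 CPM (170 to 202), with a ratio of 0.985 (0.876 to 1.11). At P2 the level in coronary cells was 191 CPM (183 to 199) without an artery-marker UMI, 174 CPM (162 to 187) with 1 and 197 CPM (177 to 220) with 2. It was 244 CPM (214 to 277) with 3 or 4, 310 CPM with 5 to 7 and 302 CPM with 8 or more. Adult cells had 185 CPM with none and 161 CPM with 8 or more. The P2 cells in both artery gates had the most, 341 CPM, 1.81 times (1.64 to 2.00) the level of other coronary cells. Efna1 levels at P2 were thus higher from 3 artery-marker UMIs upwards, with no such order in the adult. At E15, the 121 coronary cells with an artery-marker UMI had 373 CPM against 143 CPM in the 1037 cells without, a ratio of 2.61 (1.92 to 3.50), which was 2.46 without the cell with the most Efna1 UMIs.

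Epha4, the gene of a receptor that binds ephrins of both types, was rare, with 716 UMIs in all, and like Efnb2 it was higher in artery cells. At P2 it stood at 17.8 CPM (13.7 to 22.7) in artery cells and 4.47 CPM (3.43 to 5.73) in other coronary cells, a ratio of 3.98 (2.76 to 5.74). Adult levels were 51.0 CPM (43.7 to 59.2) and 26.8 CPM (21.1 to 33.5), a ratio of 1.90 (1.45 to 2.53). Large artery cells gave 3.10 (2.28 to 4.26) at P2, and those of the adult 1.98 (1.43 to 2.75). The intervals of the artery classes lay above those of other coronary cells at both stages. In the P2 cells the level of 25.7 CPM (18.8 to 34.3) was reached only with 8 or more artery-marker UMIs, and the groups with fewer lay between 4.37 and 9.08 CPM. With gates scaled to depth the P2 artery ratio was 7.98.

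The adult had more Epha4 than P2 in both lineages. Coronary cells went from 3.46 CPM (1.12 to 8.06) at E15 and 8.03 CPM (6.89 to 9.31) at P2 to 40.7 CPM (36.0 to 45.9), and the last step was 5.07 (4.18 to 6.16). Endocardial cells went from 10.5 CPM (6.75 to 15.7) at E12, 7.16 CPM (4.09 to 11.6) at E15 and 14.3 CPM (11.2 to 18.0) at P2 to 46.2 CPM (18.6 to 95.1), with a last step of 3.23 (1.25 to 6.99) that rests on 7 adult UMIs. The adult level was the highest of the 4 stages in both, and the endocardial step was 1.97 as a mean over cells. Endocardial cells of P2 had 1.78 times (1.34 to 2.36) the coronary level.

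Ephb1, the gene of another receptor for B-type ephrins, was the rarest member, with 476 UMIs in all, and was hardly detected in the endocardial class. Coronary cells had 18.9 CPM (5.15 to 48.4) at E12, 13.8 CPM (8.44 to 21.4) at E15, 15.7 CPM (14.1 to 17.5) at P2 and 12.5 CPM (9.91 to 15.5) in the adult. Endocardial cells had 1 UMI at E12, 3 UMIs at E15 and 2 UMIs at P2, or 0.439, 1.34 and 0.398 CPM. Coronary intervals overlapped at all 4 stages, and the ratio of endocardial to coronary cells was 0.0971 (0.0185 to 0.327) at E15 and 0.0252 (0.00305 to 0.0919) at P2. In the adult 0 UMIs in 65 endocardial cells allow up to 19.8 CPM, so that a lack there was not detectable. At P2 8.08% of other coronary cells had an Ephb1 UMI at a median of 4246 UMIs, against 0.189% of endocardial cells at 4538 UMIs, which serve as the background here.

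Inside the coronary vessels Ephb1 leaned away from the large artery gate. At P2 other coronary cells had 18.7 CPM (16.5 to 21.1), artery cells 10.3 CPM (7.24 to 14.2) and large artery cells 5.99 CPM (4.57 to 7.71). The ratios to other coronary cells were 0.551 (0.379 to 0.779) and 0.321 (0.238 to 0.426). In the adult they were 0.696 (0.435 to 1.11) and 0.217 (0.0669 to 0.546). The P2 large artery class was 33.5% endocardial, and endocardial cells had 0.398 CPM. Its coronary cells outside the artery gate, without lymphatic markers, had 7.43 CPM (4.85 to 10.9), an interval below that of other coronary cells. In the adult such cells had 5.52 CPM (0.668 to 19.9) from 2 UMIs. P2 cells in the artery gate alone, at 14.9 CPM, gave 0.797 (0.523 to 1.17), and those in both gates, at 5.45 CPM, 0.292 (0.125 to 0.583). When classes were assigned after thinning, P2 artery cells gave 0.153 from 2 UMIs. The lower level was found in the cells with large artery markers, and the artery gate alone could not be told apart from other coronary cells.

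From stage to stage, none of the 5 members tested in each lineage passed 2-fold between E12 and E15, where 18.7% of the tested genes did in coronary and 9.15% in endocardial cells. Epha4 in coronary cells and Ephb1 in endocardial cells were under 20 UMIs there, and the latter gave 3.06 from 3 against 1 UMI. From E15 to P2, Efnb1, Ephb4 and Epha4 were at least 2-fold higher in coronary cells (background 25.7%) and none of the 5 tested was in endocardial cells (18.6%). Endocardial Epha4 lay just under that size, at 1.9996 (1.15 to 3.68), so Epha4 did not differ clearly between the lineages in this step. From P2 to Adult the members at least 2-fold higher were Efnb1 and Epha4 in coronary cells (25.1%) and Epha4 in endocardial cells (34.3%). The median of all genes from E15 to P2 was itself up by 0.37 (log2) in coronary and 0.25 in endocardial cells, and from P2 to Adult it was -0.11 in endocardial cells. Relative to that median the coronary step from E15 to P2 was 1.46 for Efnb1, 0.69 for Ephb4 and 0.85 for Epha4 (log2), so that of these Efnb1 alone stayed past 2-fold. The Epha4 ratio for that step, 2.32, had an interval of 0.978 to 7.25. Without mitochondrial, ribosomal protein and hemoglobin genes in the totals, Ephb4 gave 1.75 and Efna1 0.979, where it was 1.17 (1.03 to 1.34) with them.

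**Figure D5:**
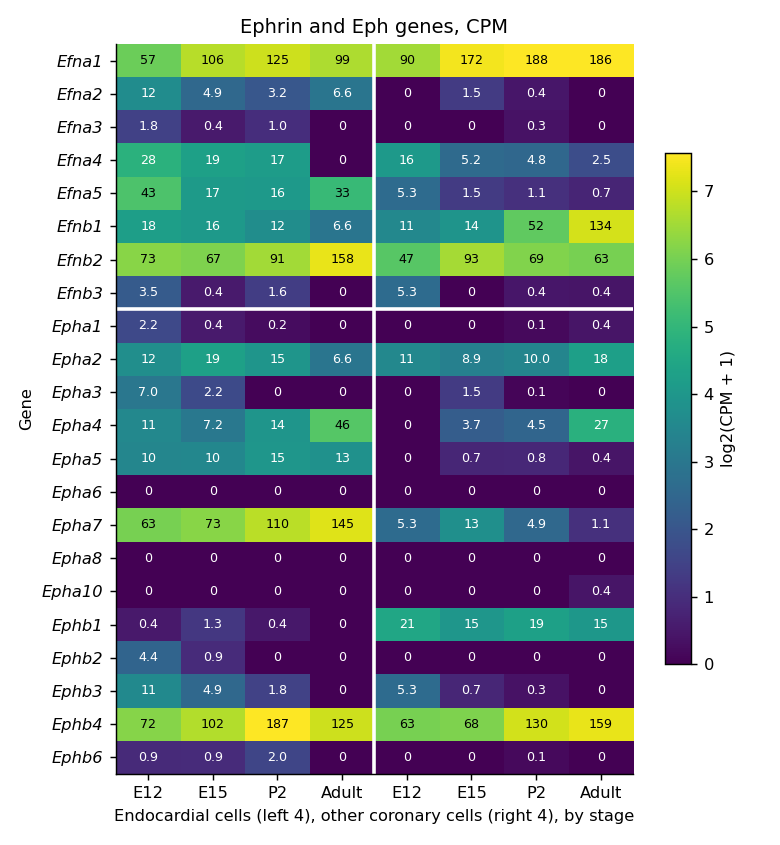
Level of the 22 ephrin and Eph genes (lines) in endocardial cells (left columns) and other coronary cells (right columns) at E12, E15, P2 and Adult, with CPM printed in each field and colour for log2(CPM + 1). Epha7 goes from 63.2 to 145 CPM in endocardial cells and stays under 13 CPM in other coronary cells.

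Of the other 16 family genes, 8 reached 20 CPM in a class and 8 did not, and Epha6 and Epha8 had no UMI. Epha7, an A-type receptor, was the receptor most tied to the endocardial class, at 63.2 CPM (53.3 to 74.4) at E12, 72.9 CPM (62.2 to 85.0) at E15, 110 CPM (101 to 119) at P2 and 145 CPM (90.9 to 220) in the adult. Coronary cells had 9.45, 14.5, 17.5 and 3.19 CPM, and the ratio was 5.02 (3.18 to 8.34) at E15, while P2 gave 6.27 (5.49 to 7.16) and the adult 45.5 (23.9 to 87.0). Epha7 was thus higher in endocardial cells at P2, where Efnb1 and Ephb1 were lower. Efna5, another A-type ephrin, stood at 12.5 CPM (9.13 to 16.7) in P2 artery cells and 1.08 CPM (0.606 to 1.78) in other coronary cells, a ratio of 11.6 (6.33 to 22.3). Epha2, the receptor that ephrin-A1 binds, was 1.82 times (1.33 to 2.46) higher in artery than in other coronary cells at P2 and 1.47 times (1.04 to 2.11) in the adult. The remaining genes that reached 20 CPM were Efna2, Efna4, Epha3, Ephb2 and Ephb3. Of these Efna4 did so in E12 endocardial cells, at 27.7 CPM (21.3 to 35.4), and all did so in the embryonic artery gates rich in mesenchymal genes, the other 4 in no other class. The highest levels of Efna4 and Epha3, 34.0 CPM each, and of Ephb3, 45.3 CPM, came from the 64 barcodes of the E15 artery gate. There 3 UMIs already make 34.0 CPM, so these levels rest on very few UMIs.

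The gene lists around the pathway were read in the artery comparison. Of 13 arterial genes tested at P2, 9 were at least 2-fold higher in artery cells and none was lower, where 9.88% of all tested genes passed 2-fold in either direction, with a median of 1.91 (log2) beside 0.04 for all tested genes. Sox17, an arterial transcription factor, was 3.47 times higher (3.27 to 3.70), Hey1, a Notch target, 4.31 times (3.86 to 4.82) and Gja4, the connexin 37 gene, 18.4 times (16.3 to 20.8), while Nrp1, a receptor for VEGF and semaphorins, was at 1.02 (0.967 to 1.07). Efnb2, at 2.44, thus lay below the first 3 of these and above Nrp1. In the adult, with 5.8% of all tested genes past 2-fold, 5 of 12 were higher (Gja4, Gja5, Hey1, Sox17 and Jag1), with a median of 0.76 beside 0.02, and Efnb2 at 1.88. Of 7 venous genes Nrp2 alone was at least 2-fold lower at P2 and Vwf and Prss23 higher, and in the adult Nr2f2, Nrp2 and Vwf were lower and Nr2f1 higher, with list medians of -0.62 and -0.90. Of the effectors that act downstream of ephrins and Eph receptors, 1 of 22 tested passed 2-fold at P2 (Kalrn, higher) and 0 of 18 in the adult, with medians of 0.09 and -0.10, beside the same 9.88% and 5.8% of all tested genes. Nck1, an adaptor that Eph receptors recruit, stood at 1.62 (1.49 to 1.76) at P2 and in the adult at 1.44 (1.30 to 1.59), and Sdcbp, the scaffold that binds B-type ephrins, at 0.977 (0.927 to 1.03) and 1.09 (0.998 to 1.19).

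The likeness of other genes to each member was taken as Pearson's r of log2(CPM + 20) over 14 groups of at least 50 cells, each cell in 1 group, among 9833 genes. These groups share libraries and depth, and no p is given. They include 3 embryonic artery gates, artery and large artery at E12 and large artery at E15, and values without these, over 11 groups, were added after seeing the data. Efna1 was most like Icam2 (0.990), Iffo1 (0.977) and Rexo2 (0.976), and Ephb4 most like Hint2 (0.951), Akirin1 (0.945) and Aplp2 (0.943). Efnb1 was most like Gle1 (0.957), Dhrs3 (0.941) and Timeless (0.937), and Ephb1 most like Pcdh17 (0.955), Mfng (0.955) and Polg (0.949). Epha4 was most like Prdm2 (0.976), Cwf19l2 (0.933) and Ric8b (0.912). The nearest genes to Efnb2 were Srr (0.834), Rgs10 (0.819) and Ick (0.811), the weakest likeness among the members. Over 11 groups the genes just named kept an r of at least 0.779, but the nearest genes changed. Of the 3 nearest genes, 2 stayed for Efna1 (Icam2 and Iffo1), 2 for Ephb1 (Pcdh17 and Mfng), 1 for Efnb1 (Gle1) and 0 for Efnb2, Ephb4 and Epha4. Between members, r over 14 groups was 0.76 for Efna1 and Ephb4, 0.63 for Efnb2 and Epha4 and -0.15 for Efnb2 and Ephb4. Over 11 groups these were 0.51, 0.49 and 0.44, so that the sign for Efnb2 and Ephb4 rested on the embryonic artery gates.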

How the data were processed

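Sorted cells were turned by the authors into 3′ libraries (10x Genomics, v2 chemistry) and mapped to mm10 with Cell Ranger 2.2 (tool and build from the submitters' processing notes). The deposited values are raw UMI counts, not normalized. The E12 file held all barcodes, and those with at least 452 UMIs were used. The study's upper limits on UMIs, genes and mitochondrial share were applied (E12: 4000, 1500, 10%, E15: 3000, 1300, 10%, P2: 12000, 4000, 20%, Adult: 5000, 2000, 20%). They removed 163, 182, 163 and 155 barcodes. No doublet caller was run, so doublets under these limits remain. Kept libraries held 7568491, 6486121, 27867530 and 6923134 UMIs.

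UMIs were summed per class and stage. CPM were given exact Poisson intervals, ratios conditional binomial intervals and shares exact binomial intervals, all at 95% and for counting error only; the scripts were tested on simulated data. Genes with at least 20 UMIs over both groups counted as tested, and 2-fold as the size named. A count of 0 was given the level of 3 UMIs as its limit. Vein and tip markers (at least 2 UMIs), dividing (3), lymphatic (2) and mesenchyme markers (3, without a pan-endothelial UMI) were cut at values set after seeing the data. The members and lists were chosen with earlier results of these data known. Named genes were the 6 members in every class and stage, other family genes reaching 20 CPM in a class of at least 50 cells, up to 4 genes of a list with the most UMIs (other list genes are named because they make up a count), and for each member the 3 genes of highest r among those with at least 200 UMIs. Alternatives were 10 settings listed beforehand and 4 added after seeing the data, which were likeness without the embryonic artery gates, gates scaled with depth, the cell with the most UMIs left out, and barcodes without a pan-endothelial UMI left out. Python 3.11.15 with numpy 2.4.6, scipy 1.17.1, pandas 2.3.3 and matplotlib 3.10.9 was used, with GENCODE and RefSeq tables of GRCm38.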

Additional observations from a re-analysis of the deposited data

Results flagged for a closer look

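Efnb2 went opposite ways in endocardial against coronary cells at different stages, with a ratio of 0.694 at E15 and 1.68 in the adult, each with an interval on its side of 1. The adult value came from 65 endocardial cells. The difference between the stages was not tested, since each has 1 library.

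Ephb4 in artery against other coronary cells was 1.11 (1.00 to 1.22) at P2 and 0.745 in the adult. In coronary cells with against without an artery-marker UMI, lymphatic markers left out, it was 0.941 (0.873 to 1.01) at P2 and 0.779 in the adult. In large artery against other coronary cells Ephb4 was 1.33 at P2 and 0.754 in the adult. These differences between stages were not tested either. At P2 the large artery gate was 33.5% endocardial, and its coronary cells outside the artery gate, without lymphatic markers, gave 1.26 (1.15 to 1.39).

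The E12 file also holds barcodes outside the comparisons. The 156821 barcodes of 1 to 100 UMIs, mostly droplets without a cell, carried 78.1 CPM of Efna1, 24.7 CPM of Efnb1, 93.2 CPM of Efnb2, 16.4 CPM of Epha4 and 72.6 CPM of Ephb4. The barcodes kept had 43.5, 22.6, 74.0, 14.4 and 57.2 CPM, and E12 endocardial cells 56.6, 18.0, 73.3, 10.5 and 71.6 CPM. The part of free RNA in the E12 class levels was not tested.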

How the results depend on the processing

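Of 1324 values under alternatives for 128 results, 1213 stayed within the interval of the main value or within 1.5 times the main count. The totals in this paragraph include the embryonic artery and large artery gates, whose ratios are not given above. Among member ratios that were at least 2-fold, 1 of 317 alternative values had the other sign. That was Efnb1 in large artery against other coronary cells at E15, which became -0.11 (log2) with 1 UMI when only coronary cells were kept, at a stage where this gate was not compared. Of 1080 alternative values for all member ratios, 53 had the other sign.

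The percentage of Efnb2 among Efnb2 and Ephb4 UMIs moved in P2 artery cells to 57.2 with 1 UMI more in each gate, 58.4 with gates scaled with depth and 50.6 without cells of both artery gates, which gave 44.8 in the adult. In adult other coronary cells it moved to 32.5, 33.0 and, with classes assigned after thinning, 36.5, and in P2 other coronary cells to 37.4 after thinning. Efnb2 in artery against other coronary cells moved to 0.57 (log2) in the adult after thinning and to 1.10 at P2 without cells of both gates. Ephb4 in endocardial against coronary cells at P2 moved to 0.52 without cells holding markers of other types and 0.51 after thinning. In each case the direction was kept. The cause was not tested.

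The number of genes past 2-fold depended on the count minimum. With 1 UMI in each group it was 2608 and 2182 from E12 to E15 in coronary and endocardial cells (reported: 1250 and 913), 3301 from E15 to P2 in endocardial cells (2012), 2986 for endocardial against coronary cells at E15 (1760), 2118 and 1700 for artery cells at P2 and in the adult (1148 and 590), and 3722 and 2419 for large artery cells (2406 and 1348). With 50 UMIs it was 418 and 419 from E12 to E15, 2269 from P2 to Adult in endocardial cells (3514), 1094 and 996 for endocardial against coronary cells at E12 and E15 (2375 and 1760), 286 for adult artery and 759 for adult large artery cells. Fewer or more genes tested by construction change these counts. With 1 library per stage no replicate could be left out, and levels under about 3 UMIs a class are beyond this depth.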

Other observations

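Other groups of cells were split after seeing the data, and their values are given without a reading. Among other coronary cells of P2, the 412 cells with tip cell markers had less of the B-type pair than the remaining cells, with Efnb2 at 45.3 against 75.7 CPM, a ratio of 0.599 (0.486 to 0.733), and Ephb4 at 98.4 against 137 CPM, a ratio of 0.720 (0.624 to 0.827). Efnb1 gave 0.582 (0.460 to 0.729) and Efna1 0.793 (0.709 to 0.884) in the same cells. At E15 the 66 cells with tip cell markers had Efna1 at 288 CPM against 164 CPM, a ratio of 1.76 (1.16 to 2.58), and Efnb2 at 0.828 (0.368 to 1.64). The E15 value of Efna1 rests on 32 UMIs, 7 of them in 1 cell. The difference between its ratios at E15 and P2 was not tested.

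Of the 4 artery-marker genes, Cxcl12, a chemokine gene, and Glul, the glutamine synthetase gene, could be set against Efna1 at E15, where Alpl was found in 0 and Nebl in 2 coronary cells. The 70 cells with a Cxcl12 UMI had 505 CPM of Efna1 and the cells without 147 CPM, a ratio of 3.43 (2.43 to 4.75). The 62 cells with a Glul UMI gave 1.60 (1.00 to 2.44). At P2 the Alpl ratio was 2.00 (1.73 to 2.29), that of Nebl 1.84, that of Cxcl12 1.45 (1.35 to 1.56) and that of Glul 1.09 (1.03 to 1.16). The adult gave 1.16 (1.02 to 1.33) with Alpl, 1.23 (1.04 to 1.46) with Nebl, 0.922 (0.814 to 1.05) with Cxcl12 and 0.909 (0.803 to 1.03) with Glul.

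Barcodes with mesenchyme markers and no pan-endothelial UMI numbered 989 at E12 and 505 at E15. They held 40.9 and 47.9 CPM of Efnb1, 63.7 and 42.1 CPM of Efnb2 and 24.7 and 24.7 CPM of Epha4, with 10.4 and 18.9 CPM of Efna1 and 29.9 and 27.6 CPM of Ephb4. At E12 their Efnb1 level was 2.27 times (1.51 to 3.46) and their Epha4 level 2.34 times (1.37 to 4.08) that of endocardial cells, and their Efna1 level 0.184 times (0.102 to 0.310). The E12 artery gate held 200 CPM (161 to 245) of Efna5. The 496 P2 barcodes with lymphatic markers had 116 CPM of Efnb2, 190 CPM of Ephb4 and 128 CPM of Efna1.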
